A study of Mus musculus with 27 samples.

Results

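The collagen chains were the 44 genes whose single symbol on the array matched the pattern Col, a number, a and a number, out of 19938 genes measured. They were described across 27 mouse cultures in 9 groups of 3. By the structure of the protein, 11 encode fibrillar collagens, 8 basement membrane collagens, 9 fibril-associated collagens with interrupted triple helices, 4 transmembrane collagens and 12 other network, microfilament or anchoring collagens. All 44 were tested, since no filter on dim genes was applied, and 40 had a mean at or above the 40th percentile of all genes. Of the 44, 23 passed the test in at least 1 of the 9 comparisons between groups and 21 in none, while 22.0% of all genes passed in at least 1.

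The study asked whether small molecules change the conversion of fibroblasts to cardiomyocyte-like cells by a set of 5 cardiac factors named HNGMT after Hand2, Nkx2.5, Gata4, Mef2C and Tbx5. Mouse embryonic fibroblasts (MEFs), from embryos of mixed background with the heart and other viscera removed, received HNGMT or no factors (0TF). Cardiac fibroblasts (CFs), from hearts of adult mice aged 8 to 12 weeks and used at passage 3, received HNGMT only. In each of these 3 backgrounds, 3 cultures received transforming growth factor β1 (TGFβ1, 2 ng/mL), 3 received SB431542 (SB, 0.5 µM in MEFs and 5 µM in CFs) and 3 received the vehicle DMSO. SB inhibits the kinase of the type I TGFβ receptor. The molecules were added on Day -1, the factors were induced with 2 µg/mL doxycycline on Day 0, and total RNA was collected on Day 3. The factors, the doxycycline-dependent activator and a calcium reporter under the cardiac troponin T promoter were carried by lentiviruses. The labels name the 0TF cultures both as empty vector and as receiving no factors, and say that the 3 cultures of a group were biologically independent. The p-values below measure the spread between such cultures.

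Collagens are triple helices of 3 chains that are wound in the endoplasmic reticulum, secreted and assembled outside the cell. Fibrillar chains form the banded fibrils that give tissue its tensile strength, fibril-associated chains decorate the surface of those fibrils, and type IV chains form the sheet-like network of basement membranes. Type VI chains form beaded microfilaments around cells, and type VIII and type X chains form short-chain networks. Fibroblasts are the main source of fibrillar collagen in the heart, and TGFβ is a known inducer of collagen synthesis in fibroblasts.

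The values are log2 intensities of whole probe sets, so levels were compared within a gene and not between genes. Because RNA was taken from whole cultures, fewer cells of a type and less RNA per cell cannot be told apart. Array medians were 7.36 to 7.43 in CFs and 7.83 to 7.91 in MEFs, and the brightest probe set of an array was at 14.24 to 14.64, so Col1a1 at 13.52 to 13.90 in MEFs lay close to the top of the scale. One library stood apart: CF HNGMT+SB replicate 3 differed from the mean of the other 2 cultures of its group by more than 0.5 log2 units in 9 of the 44 collagen genes, while those 2 cultures differed from each other by that much in 0. The labelled cell type was checked against its markers. The endothelial genes Cdh5 and Emcn were at 12.59 to 12.65 and 12.93 to 13.10 in CFs given TGFβ1 or DMSO, against 7.20 to 7.56 and 6.27 to 6.71 in all MEF cultures, and both were lower in CF HNGMT+SB replicate 3 (11.28 and 11.20) than in the other CFs. Not all 12 endothelial markers separated the cell types: Cldn5 was at 7.15 to 7.67 in CFs, against 7.19 to 7.77 in MEFs, and Tek at 8.25 to 9.55 in CFs, against 6.71 to 10.36 in MEFs. The fibroblast markers Dcn and Vim were high in both cell types, and Lum was at 6.77 to 8.38 in the means of the 3 CF groups, against 10.60 to 13.38 in the 6 MEF groups. The part of endothelial RNA in the CF values below was not tested.

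**Figure D1:**
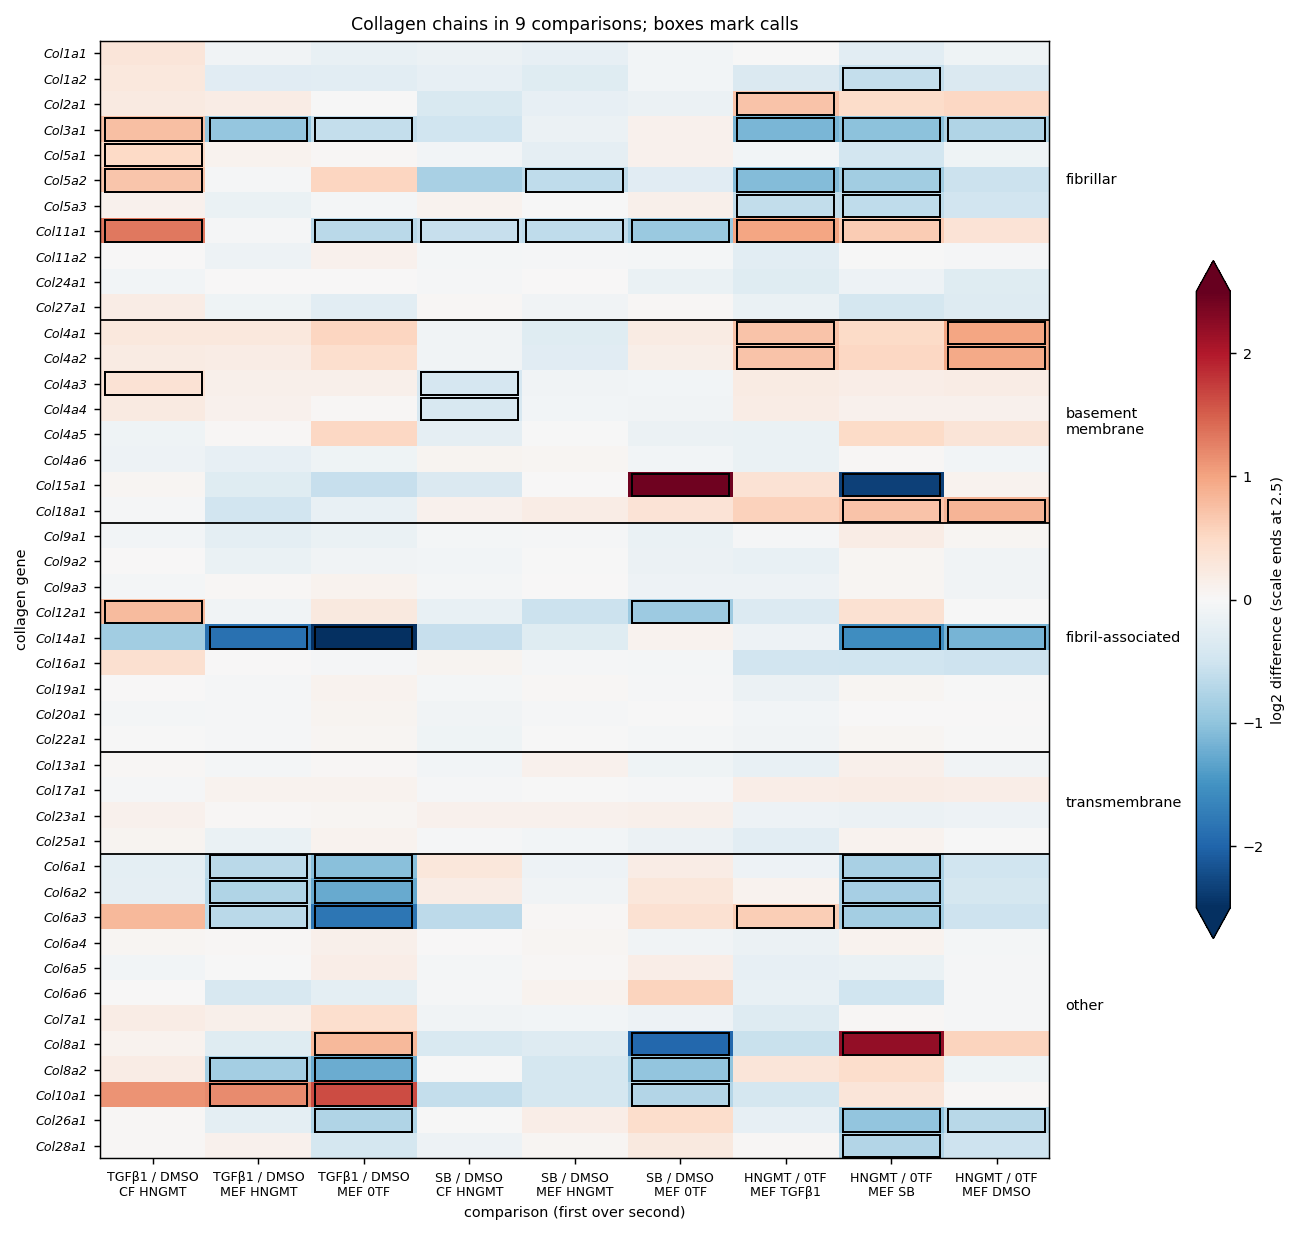
Each cell of the map is the log2 difference of 1 collagen gene (rows, grouped by class) in 1 of the 9 comparisons (columns, first group over second), from blue (lower) to red (higher) with the color scale ending at 2.5, and black boxes mark calls. The 4 transmembrane genes have no box, and the strongest colors are those of Col14a1 with TGFβ1 in 0TF MEFs (-2.89) and of Col15a1 with SB in 0TF MEFs (2.44).

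Promoter sequences of 4 genes that recur below are given because their patterns differ or coincide: Col3a1 moved in opposite directions with TGFβ1 in CFs and MEFs, Col6a1 and its neighbor Col6a2 moved together, and Col8a1 had the largest fall with SB in 0TF MEFs. RefSeq (GRCm38.p6) gave 38 windows of 250 bases before an annotated start for 35 of the 44 genes. Of these windows 11 overlap no annotated gene, among them the 4 shown. Capitals mark matches on either strand to 6 short motifs: TATAAA, which binds the general initiation machinery, CCAAT, which binds NF-Y, GGGCGG, which binds Sp1-type factors, CAGAC, which binds Smad proteins, TGANTCA, which binds AP-1, and GATAA, which binds GATA factors.
Col3a1 (chr1:45311288-45311537, plus strand): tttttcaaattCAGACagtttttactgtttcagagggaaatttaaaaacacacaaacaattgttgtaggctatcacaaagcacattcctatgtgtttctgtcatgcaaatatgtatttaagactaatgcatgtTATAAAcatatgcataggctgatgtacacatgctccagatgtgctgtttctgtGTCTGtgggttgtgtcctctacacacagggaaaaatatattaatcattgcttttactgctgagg
Col6a1 (chr10:76726045-76726294, minus strand): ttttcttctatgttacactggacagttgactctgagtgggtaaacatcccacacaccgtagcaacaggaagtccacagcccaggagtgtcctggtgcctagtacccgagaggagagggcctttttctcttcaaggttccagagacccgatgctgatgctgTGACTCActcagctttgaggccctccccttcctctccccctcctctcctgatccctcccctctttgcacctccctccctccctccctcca
Col6a2 (chr10:76623631-76623880, minus strand): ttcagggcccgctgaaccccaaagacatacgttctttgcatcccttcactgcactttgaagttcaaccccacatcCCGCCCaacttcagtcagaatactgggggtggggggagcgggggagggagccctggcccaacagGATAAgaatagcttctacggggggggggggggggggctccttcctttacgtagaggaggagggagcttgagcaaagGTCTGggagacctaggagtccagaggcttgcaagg
Col8a1 (chr16:57754738-57754987, minus strand): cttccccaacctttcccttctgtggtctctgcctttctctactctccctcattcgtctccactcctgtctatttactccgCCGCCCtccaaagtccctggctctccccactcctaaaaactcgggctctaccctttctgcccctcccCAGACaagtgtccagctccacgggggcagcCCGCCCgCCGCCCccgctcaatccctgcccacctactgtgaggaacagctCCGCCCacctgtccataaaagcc
In the Col3a1 window there were 1 TATAAA and 2 CAGAC, in Col6a1 1 TGANTCA, in Col6a2 1 GGGCGG, 1 CAGAC and 1 GATAA, and in Col8a1 4 GGGCGG and 1 CAGAC. Among the 35 collagen genes with a window, CAGAC was present in 17 (48.6%, against 42.2% of all 32851 windows of this length) and GGGCGG in 21 (60%, against 32.7%). CCAAT was present in 13 (37.1%, against 33.8%), GATAA in 6 (17.1%, against 22.6%), TATAAA in 5 (14.3%, against 12.4%) and TGANTCA in 1 (2.86%, against 6.75%). The collagen shares are by gene and the shares set against them by window. By window, CAGAC was in 17 and GGGCGG in 22 of the 38 collagen windows. These matches describe letters only.

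In CFs with HNGMT, TGFβ1 raised 6 of the 44 collagen genes and lowered 0. A gene was called where limma's adjusted p was below 0.05 across the 19938 genes and the log2 difference was at least 0.32 in CFs or 0.58 in MEFs. Over all genes, 3.11% were called up and 2.20% down in this comparison. Of the 6, 4 were fibrillar chains (Col11a1, Col3a1, Col5a2 and Col5a1), 1 was fibril-associated (Col12a1) and 1 belonged to the basement membrane class (Col4a3). The median log2 difference was 0.26 over the 11 fibrillar genes, 0.12 over the 8 basement membrane genes, -0.01 over the 9 fibril-associated genes and 0.05 over the 4 transmembrane genes, against -0.0044 over all genes.

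Col11a1, a chain of the type XI collagen that nucleates thin fibrils in cartilage and other tissues, had 10.67, 10.61 and 10.59 in CFs with TGFβ1, against 9.36, 9.21 and 9.36 in CFs with DMSO. The groups lay more than 1 log2 unit apart, and the difference was 1.31 ± 0.05 (SE), a 2.49-fold increase (adjusted p = 1.63e-05). Col3a1, the single chain of type III collagen, had 10.27, 10.30 and 10.19 with TGFβ1, against 9.46, 9.53 and 9.53 with DMSO. Its groups did not overlap and it rose by 0.74 ± 0.09 (adjusted p = 0.00227).

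Col5a2, a chain of the type V collagen that sets fibril diameter, had 11.19, 11.00 and 11.03 with TGFβ1, against 10.38, 10.38 and 10.38 with DMSO. Col5a1, its partner chain, had 10.33, 10.35 and 10.36 with TGFβ1, against 9.68, 9.92 and 9.96 with DMSO. Col12a1, a fibril-associated chain that bridges fibrils and the surrounding matrix, had 12.46, 12.38 and 12.40 with TGFβ1, against 11.66, 11.47 and 11.71 with DMSO. All 3 genes were higher in every TGFβ1 culture, with differences of 0.70 ± 0.13, 0.49 ± 0.11 and 0.80 ± 0.15 and adjusted p of 0.0185, 0.0283 and 0.0168 (limma). Each of these 3 calls was lost, with its direction kept, when any 1 of the 6 CF cultures with TGFβ1 or DMSO was left out. Col4a3, known for the filtration membrane of the kidney, had a mean of 9.06 with TGFβ1, against 8.69 with DMSO and no overlap, a rise of 0.37 ± 0.04 (adjusted p = 0.00121).

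The type I chains were not called in CFs. Col1a1 had 12.62, 12.51 and 12.46 with TGFβ1, against 12.24, 12.19 and 12.28 with DMSO, and Col1a2 had 11.51, 11.09 and 11.11 with TGFβ1, against 10.93, 10.97 and 11.04 with DMSO. Both were higher in every TGFβ1 culture, but the differences of 0.29 ± 0.14 and 0.26 ± 0.17 did not pass (adjusted p = 0.289 and 0.468). The standard errors of this comparison take in the spread of the CF HNGMT+SB group, which holds the culture that stood apart. In a fit without that culture, 9 collagen genes were called up (background 4.97%) and 1 down (5.80%): the 6 genes above, with Col6a3 (0.82, adjusted p = 0.000611), Col10a1 (1.13, adjusted p = 0.0238) and Col16a1 (0.39, adjusted p = 0.012) higher, and Col14a1 (-0.88, adjusted p = 0.000112) lower. Col14a1, a fibril-associated chain, had 8.35, 8.37 and 8.27 with TGFβ1, against 9.28, 9.02 and 9.32 with DMSO. In that limma fit Col1a1 (0.29, adjusted p = 0.0057) missed only the fold threshold. Col1a2 did not pass there either (adjusted p = 0.165).

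Markers of other cells moved in the same comparison. The mean of the 12 endothelial markers was 10.15 to 10.18 in CFs with TGFβ1, against 10.81 to 10.87 with DMSO, with 1 of 12 genes called, down (Kdr, by 1.22), and with Cdh5 at 12.62 to 12.65 with TGFβ1, against 12.59 to 12.62 with DMSO. Of the 7 chondrocyte markers 3 were called up: Sox9, a regulator of cartilage collagen genes, 2.38-fold, Acan by 0.81 and Comp by 0.43, while Matn1, Matn3, Hapln1 and Cnmd were at or below 7.02 in all cultures of both groups. The mean of the 5 smooth muscle and myofibroblast markers was 11.86 to 11.93 with TGFβ1, against 11.11 to 11.15 with DMSO, with 1 called up (Tagln by 0.60), and that of the 10 fibroblast markers 10.81 to 11.02 with TGFβ1, against 10.81 to 10.92 with DMSO, with Postn called up (by 1.47) and Lum and Dcn called down (-1.62 and -0.61). The mean of the 7 cardiomyocyte markers was 9.78 to 9.88 with TGFβ1, against 10.36 to 10.41 with DMSO, with Tnni3 and Ryr2 called down (-1.36 and -0.71). Of 6 epithelial and 4 leukocyte markers 1 each was called up, Krt8 by 1.51 and Csf1r by 1.37, and of 7 adipocyte markers 1 up and 1 down. Their part in the collagen values was not tested. As a check of the treatment, 4 of 5 measured TGFβ target genes rose in CFs (Pmepa1 by 1.64, Tgfbi by 1.29, Skil by 0.54 and Ccn2 by 0.38).

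In MEFs with HNGMT, TGFβ1 lowered 6 collagen genes and raised 1. Over all genes 3.54% were called down and 2.23% up. None of the 11 fibrillar genes was called up. Col2a1 was higher by 0.19 (adjusted p = 0.0311, limma), under the fold threshold. The genes that fell were Col14a1, Col3a1, Col8a2 and the 3 main type VI chains Col6a1, Col6a2 and Col6a3, and the gene that rose was Col10a1. In 0TF MEFs, TGFβ1 lowered 8 (6.19% over all genes) and raised 2 (4.21%): those 6 with Col26a1 and Col11a1 fell, and Col10a1 and Col8a1 rose.

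Col14a1 had the largest fall among the collagen genes in both MEF backgrounds. In MEFs with HNGMT it had 8.07, 8.09 and 8.18 with TGFβ1, against 9.92, 10.05 and 9.93 with DMSO, a difference of -1.86 ± 0.06 (adjusted p = 1.32e-13). In 0TF MEFs it had 8.33, 8.18 and 8.20 with TGFβ1, against 11.02, 11.22 and 11.14 with DMSO, a difference of -2.89 ± 0.06 (adjusted p = 5.35e-17). The TGFβ1 cultures of both backgrounds lay in the same range, from 8.07 to 8.33.

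The 3 main type VI chains fell in both MEF backgrounds. Col6a3, the largest of the chains, had 10.59, 10.71 and 10.77 in 0TF MEFs with TGFβ1, against 12.49, 12.47 and 12.53 with DMSO, which is -1.80 ± 0.04 (adjusted p = 8.01e-16). Under HNGMT it had 11.28, 11.33 and 11.33 with TGFβ1, against 11.95, 12.05 and 11.95 with DMSO, a smaller fall of 0.67. Col6a2 had 10.77, 10.89 and 10.97 in 0TF MEFs with TGFβ1, against 12.07, 12.15 and 12.21 with DMSO. Col6a1 had 11.37, 11.49 and 11.48 in the same TGFβ1 cultures, against 12.47, 12.46 and 12.52 with DMSO. Col6a1 differed by -1.04 and Col6a2 by -1.27 in 0TF MEFs and by -0.68 and -0.74 in MEFs with HNGMT, with no overlap between TGFβ1 and DMSO cultures in any of these. In CFs, Col6a1 and Col6a2 had differences of -0.25 and -0.22 that did not pass (adjusted p = 0.617 and 0.476), while the difference of Col6a3 was 0.82, opposite in sign. Without CF HNGMT+SB replicate 3, limma's adjusted p was 0.0327 for Col6a1 and 0.00305 for Col6a2, and both missed only the fold threshold.

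Col3a1 fell in both MEF backgrounds. In MEFs with HNGMT the call held with every culture left out in turn, and in 0TF MEFs the fold was under the threshold without DMSO replicate 3 (-0.57) or TGFβ1 replicate 1 (-0.57). It had 11.47, 11.54 and 11.54 in MEFs with HNGMT+TGFβ1, against 12.47, 12.54 and 12.46 with DMSO (-0.97 ± 0.04, adjusted p = 5.66e-12), and 12.62, 12.69 and 12.67 in 0TF MEFs with TGFβ1, against 13.22, 13.23 and 13.29 with DMSO (-0.59 ± 0.04). Col5a2, the gene next to Col3a1 on chromosome 1, had the opposite sign in 0TF MEFs: it had 12.79, 12.74 and 12.69 with TGFβ1, against 12.14, 12.20 and 12.30 with DMSO, a difference of 0.53 that missed the fold threshold. Col1a1 differed by -0.08 in MEFs with HNGMT and by -0.18 in 0TF MEFs, and Col1a2 by -0.29 and -0.27, all under the fold threshold.

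**Figure D2:**
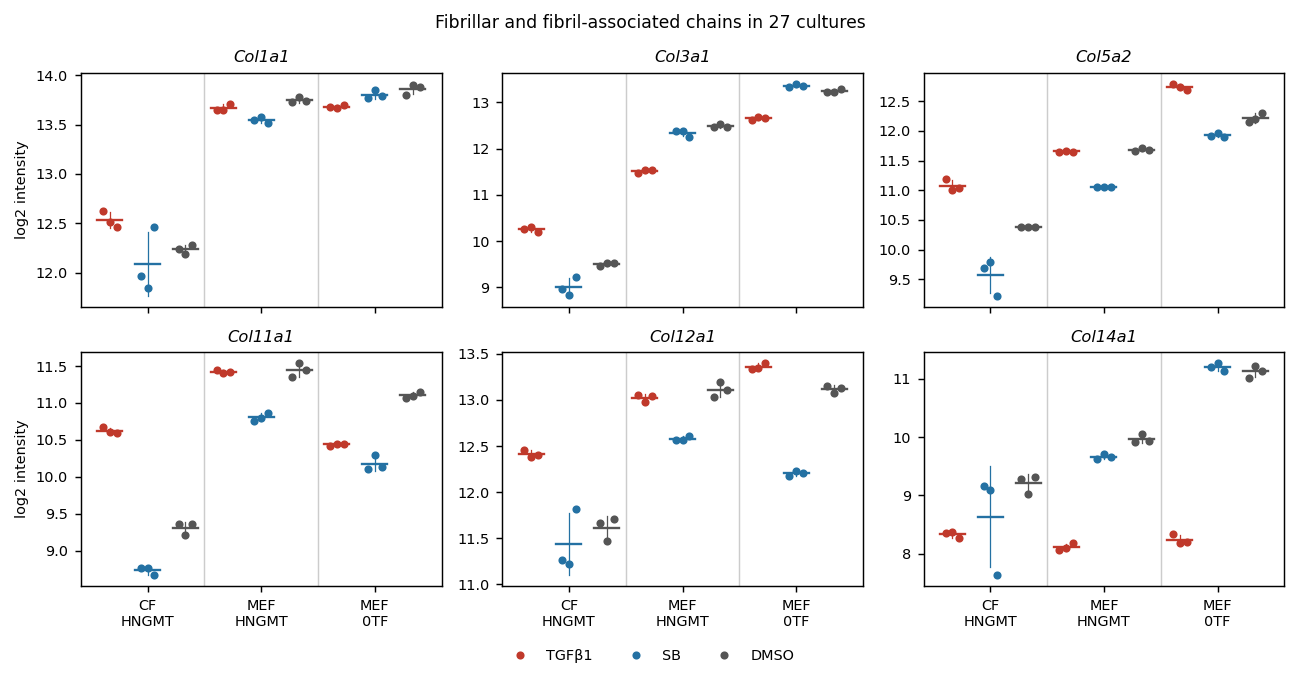
Points are the log2 intensity of single cultures (y axis, each gene on its own scale) of 4 fibrillar and 2 fibril-associated genes in 9 groups of 3 cultures, with bars for the group mean and vertical lines for the SD. Col3a1 with TGFβ1 lies above DMSO in CFs (10.19 to 10.30 against 9.46 to 9.53) and below it in both MEF backgrounds, and Col14a1 with TGFβ1 lies between 8.07 and 8.37 in all 3 backgrounds.

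Col10a1, a short-chain collagen known from hypertrophic cartilage, was the collagen gene with the largest rise with TGFβ1 in both MEF backgrounds. It had 11.29, 11.30 and 11.32 in 0TF MEFs with TGFβ1, against 9.77, 9.60 and 9.64 with DMSO (1.64 ± 0.07, adjusted p = 2.74e-12), and 10.80, 11.05 and 10.76 in MEFs with HNGMT+TGFβ1, against 9.77, 9.64 and 9.65 with DMSO (1.18 ± 0.07). In CFs it had 10.90, 9.74 and 10.03 with TGFβ1, against 8.79, 9.12 and 9.39 with DMSO, and the difference of 1.13 ± 0.29 did not pass (adjusted p = 0.053). Every TGFβ1 culture lay above every DMSO culture in all 3 backgrounds, with a wide spread in CFs.

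Col8a1, a chain of the type VIII network of vessel walls and the cornea, rose with TGFβ1 in 0TF MEFs, at 13.30, 13.31 and 13.32 against 12.45, 12.54 and 12.51 with DMSO (0.81 ± 0.04). Under HNGMT the TGFβ1 cultures were at 12.75, 12.77 and 12.74, against 13.02, 13.08 and 13.08 with DMSO, a difference of -0.31 under the fold threshold. Its partner Col8a2 fell in both, to 0.422 of the DMSO level in 0TF MEFs (8.16, 8.03 and 8.39 with TGFβ1, against 9.33, 9.56 and 9.43 with DMSO) and by 0.84 log2 units with HNGMT. Col11a1 fell by 0.66 in 0TF MEFs, where it had 10.42, 10.45 and 10.45 with TGFβ1, against 11.07, 11.10 and 11.15 with DMSO. With HNGMT its groups overlapped, at 11.44, 11.40 and 11.42 with TGFβ1, against 11.35, 11.54 and 11.44 with DMSO.

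Markers of other cells moved with TGFβ1 in both MEF backgrounds. Of the 10 fibroblast markers, 4 fell with HNGMT (Lum by 2.05, Dcn by 1.56, Pdgfra by 0.74 and Postn by 0.65) and 3 in 0TF MEFs (Lum with a log2 difference of -2.36, Pdgfra of -0.86 and Dcn of -0.66), and the list mean was 11.93 to 12.01 with HNGMT+TGFβ1, against 12.52 to 12.53 with HNGMT+DMSO. In 0TF MEFs Comp, Hapln1 and Sox9, markers of cartilage cells, fell, with log2 differences of -4.62, -3.59 and -1.12, and the mean of the 7 chondrocyte genes was 7.23 to 7.28 with TGFβ1, against 8.53 to 8.63 with DMSO, while Matn1, Matn3 and Cnmd were at or below 7.06 in all cultures of both groups. All 5 smooth muscle and myofibroblast genes rose, among them Cnn1 by 2.99 and Tagln by 1.48, and the list mean was 11.61 to 11.82 with TGFβ1, against 10.04 to 10.12 with DMSO. With HNGMT, 4 of 6 epithelial markers rose (Krt8, Krt18 by 1.33, Epcam by 0.67 and Cdh1 by 0.63), and the list mean was 8.75 to 8.77 with TGFβ1, against 8.07 to 8.20 with DMSO. In these cultures 3 of 7 cardiomyocyte markers fell and 1 rose (list mean 10.01 to 10.06 with TGFβ1, against 10.22 to 10.34 with DMSO), 3 of 7 chondrocyte markers fell and 1 rose (7.82 to 7.87, against 8.35 to 8.39), 3 of 7 adipocyte markers fell (7.73 to 7.83, against 8.13 to 8.20), 2 of 5 smooth muscle markers rose (11.34 to 11.44, against 10.93 to 11.09) and 1 of 4 leukocyte markers rose (7.52 to 7.53, against 7.24 to 7.33). The adipocyte list had 2 and the cardiomyocyte list 1 called down in 0TF MEFs, where 1 cardiomyocyte marker rose and no epithelial marker was called. Of the 12 endothelial markers 1 fell with HNGMT and 2 in 0TF MEFs. The part of these markers in the collagen changes was not tested. Of the TGFβ targets Ccn2, Skil and Pmepa1 rose in 0TF MEFs, by 1.05, 0.70 and 0.66, and Tgfbi fell by 1.48. In MEFs with HNGMT none of the 5 was called.

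The response to TGFβ1 was set between cell types by the difference of the 2 log2 differences, CFs minus MEFs, both with HNGMT. Of the 44 collagen genes 7 passed, all with a higher response in CFs (4.38% over all genes were called, 2.68% in that direction and 1.70% in the other). Col3a1 differed by 1.72 ± 0.09 (adjusted p = 7.94e-12), Col6a3 by 1.49 ± 0.20 (adjusted p = 1.3e-05) and Col11a1 by 1.34 ± 0.07 (adjusted p = 1.76e-11). Col8a2, Col14a1, Col12a1 and Col5a2 differed by 1.03, 0.98, 0.89 and 0.73. For Col8a2 the log2 difference was 0.19 in CFs and -0.84 in MEFs. In CFs it was at 6.92 to 7.55 with TGFβ1 or DMSO, near the CF array medians of 7.36 to 7.43. The part of that level in the difference was not tested. For Col14a1 the log2 difference was negative in both cell types, at -0.88 in CFs and -1.86 in MEFs. The type IV chains Col4a1 and Col4a2 gave differences of 0.0059 ± 0.06 and 0.0018 ± 0.07 (SE), which did not pass. Col4a1 was higher with TGFβ1 in each background, by 0.27 in CFs, 0.26 in MEFs with HNGMT and 0.54 in 0TF MEFs. Limma's adjusted p were 0.0268, 5.375e-05 and 3.872e-09, with each fold under the threshold. Col4a2 had 0.20, 0.19 and 0.41 in the same order, also under it (adjusted p = 0.00221 and 4.435e-07 in both MEF backgrounds). In 0TF MEFs Col4a5 (0.52) and Col15a1 (-0.5776) missed only the fold threshold. Without CF HNGMT+SB replicate 3 the same 7 genes were called (3.00% and 2.16% over all genes). The call of Col14a1 was lost when any 1 of the 12 cultures with TGFβ1 or DMSO was left out (adjusted p from 0.0534 to 0.0899). CFs and MEFs differ in age, tissue and endothelial marker content at once, and these cannot be told apart.

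**Figure D3:**
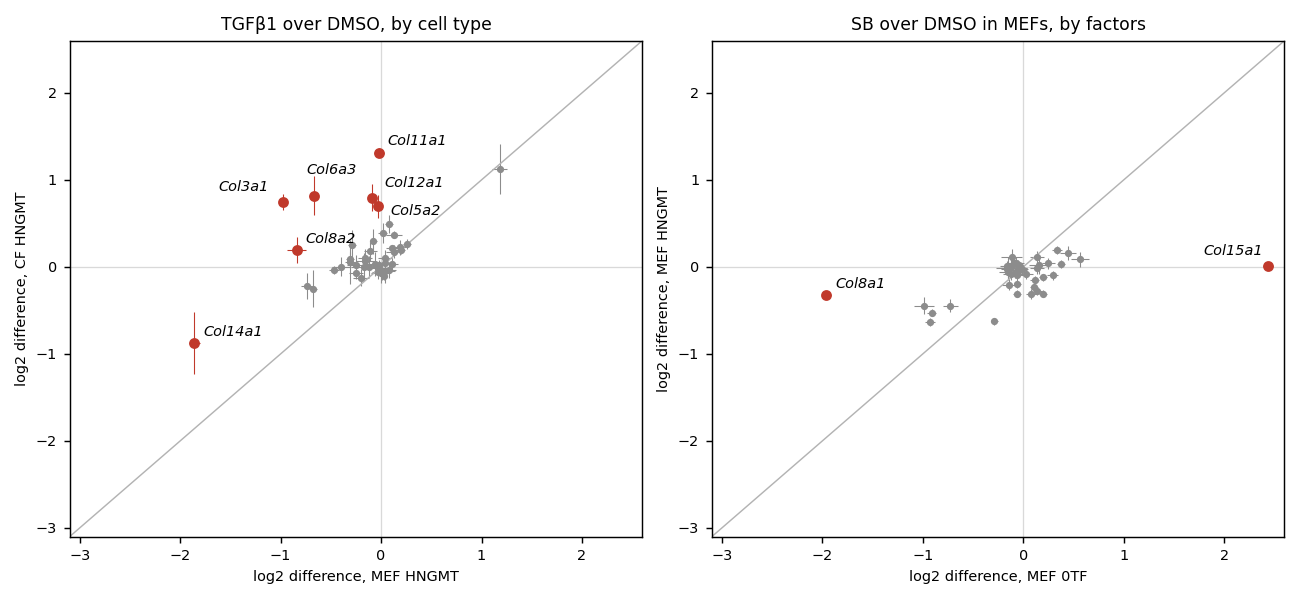
Each point is 1 of the 44 collagen genes, with its log2 difference and SE. At left, TGFβ1 over DMSO in CFs (y axis) is set against MEFs with HNGMT (x axis), and at right SB over DMSO in MEFs with HNGMT (y axis) against 0TF MEFs (x axis). Named red points passed the test of the difference between the 2 axes, and the diagonal marks equal response. The 7 named genes at left lie above the diagonal, and Col15a1 and Col8a1 lie farthest from it at right.

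With SB in CFs with HNGMT, 3 of 44 collagen genes fell and 0 rose (0.196% of all genes fell and 0.0451% rose). Col11a1 had 8.77, 8.77 and 8.67 with SB, against 9.36, 9.21 and 9.36 with DMSO (-0.57 ± 0.05, adjusted p = 0.0116). Col4a3 had 8.32, 8.27 and 8.25 with SB, against 8.68, 8.70 and 8.68 with DMSO, and its neighbor Col4a4 had 7.64, 7.60 and 7.62, against 8.03, 8.03 and 8.01, differences of -0.41 and -0.40. All 3 calls were lost without CF HNGMT+DMSO replicate 3 (adjusted p from 0.103 to 0.107). In this comparison 1 of 7 adipocyte markers was called up, 1 of 5 TGFβ targets down and no other marker. Col5a2 had 9.70, 9.79 and 9.22 with SB, against 10.38 in each DMSO culture, and did not pass (-0.81 ± 0.13, adjusted p = 0.0706). Among the collagen genes of these SB cultures, replicate 3 was lower in Col14a1 (7.63 against 9.16 and 9.10), Col15a1 (8.94 against 10.01 and 9.94) and Col6a3 (8.46 against 9.33 and 9.31), and higher in Col6a1 (10.45 against 9.58 and 9.60) and Col1a1 (12.46 against 11.97 and 11.84). Without it, 7 collagen genes were called down (background 1.03%) and 0 up (0.858%): the 3 above with Col5a2 (-0.64), Col3a1 (-0.61), Col12a1 (-0.38) and Col1a1 (-0.33).

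In MEFs with HNGMT, SB lowered 2 collagen genes and raised 0 (0.431% of all genes fell and 0.391% rose). Col5a2 had 11.06 in all 3 SB cultures, against 11.66, 11.71 and 11.68 with DMSO (-0.63 ± 0.04, adjusted p = 1.08e-08). Col11a1 had 10.76, 10.80 and 10.87 with SB, against 11.35, 11.54 and 11.44 with DMSO (-0.63 ± 0.05, adjusted p = 1.66e-07). Of the 11 fibrillar genes 10 had a negative log2 difference, with a median of -0.20, against 0.0087 over all genes. In the same comparison 4 of 7 cardiomyocyte markers rose (Actc1 by 0.84, Tnni3 by 0.71, Myh6 by 0.67 and Myl7 by 0.60), with a list mean of 10.63 to 10.97 with SB, against 10.22 to 10.34 with DMSO, and the TGFβ targets Ccn2 and Pmepa1 fell, by 1.24 and 0.73. Their part in the collagen values was not tested. SB and TGFβ1 were each compared with the same DMSO cultures, so the 2 sets of differences share their controls. No collagen gene passed the test of a difference in the SB response between CFs and MEFs (0 of 44 called, with 0.612% called over all genes, 0.266% higher and 0.346% lower). In that limma test 9 collagen genes had an unadjusted p under 0.05 (4 with a higher and 5 with a lower response in CFs). The share of all genes at that cut was not counted, so these 9 have no background. Col3a1, Col4a4 and Col4a5 had an adjusted p under 0.05 with a fold under the threshold, all with a lower response in CFs (1.07% over all genes). The largest difference was that of Col6a3 (-0.69 ± 0.20, adjusted p = 0.0922), which was called without CF HNGMT+SB replicate 1 (-0.84, adjusted p = 0.0206) or replicate 2 (-0.83, adjusted p = 0.0235). Its values in CFs with SB were 9.33, 9.31 and 8.46, the last in the culture that stood apart. The dose of SB differed between the cell types, so dose and cell type cannot be told apart here.

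In 0TF MEFs, SB lowered 5 collagen genes and raised 1 (1.13% of all genes fell and 1.26% rose). Col15a1, a multiplexin of the zone between basement membranes and fibrils, had 11.42, 11.37 and 11.39 with SB, against 8.89, 9.03 and 8.94 with DMSO. The groups were separated by more than 2 log2 units and the difference was 2.44 ± 0.05, a 5.42-fold rise (adjusted p = 3.19e-16). With HNGMT, Col15a1 had 9.09, 9.07 and 9.01 with SB, against 9.14, 8.98 and 9.01 with DMSO, and the SB response differed between HNGMT and 0TF by -2.43 ± 0.07 (adjusted p = 1.22e-13). Col8a1 fell in the 0TF cultures. It had 10.51, 10.64 and 10.47 with SB, against 12.45, 12.54 and 12.51 with DMSO (-1.96 ± 0.04). With HNGMT it had 12.70, 12.74 and 12.77, against 13.02, 13.08 and 13.08 (-0.32). Its SB response differed by 1.64 ± 0.06 between HNGMT and 0TF (adjusted p = 4.15e-12). Read from the brightest probe set, these were the only collagen genes of which the SB response differed past the threshold. Over all genes 1.96% were called (0.893% higher and 1.06% lower). With the mean of its 2 probe sets, Col6a6 passed limma's test as well (-0.69, adjusted p = 0.00351).

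The other falls with SB in 0TF MEFs were smaller. Col12a1 had 12.17, 12.23 and 12.21 with SB, against 13.15, 13.07 and 13.13 with DMSO (-0.91 ± 0.04). Col11a1 had 10.11, 10.29 and 10.14 with SB, against 11.07, 11.10 and 11.15 with DMSO (-0.93 ± 0.05). Col8a2 fell by 0.99 and Col10a1 by 0.73, with no overlap of the groups in either.

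Adipocyte genes moved with Col15a1. All 7 measured members of the adipocyte list rose with SB in 0TF MEFs, among them Adipoq by 4.07, Fabp4 by 3.95 and Car3 by 6.17, and the list mean was 11.36 to 11.44 with SB, against 8.37 to 8.40 with DMSO. Under HNGMT 2 of 7 rose (Lpl by 0.68 and Fabp4 by 0.63), with a list mean of 8.49 to 8.62 with SB, against 8.13 to 8.20 with DMSO, and Adipoq at 6.57 to 6.66 with SB. Other lists moved with SB in 0TF MEFs as well. Of 5 smooth muscle and myofibroblast markers 3 were called down, as were 3 of 5 TGFβ targets. Of 7 chondrocyte markers 1 was called up and 2 down, of 12 endothelial markers 1 up and 1 down, and of 7 cardiomyocyte markers 1 down. The part of all these genes in the Col15a1 and Col8a1 values was not tested.

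**Figure D4:**
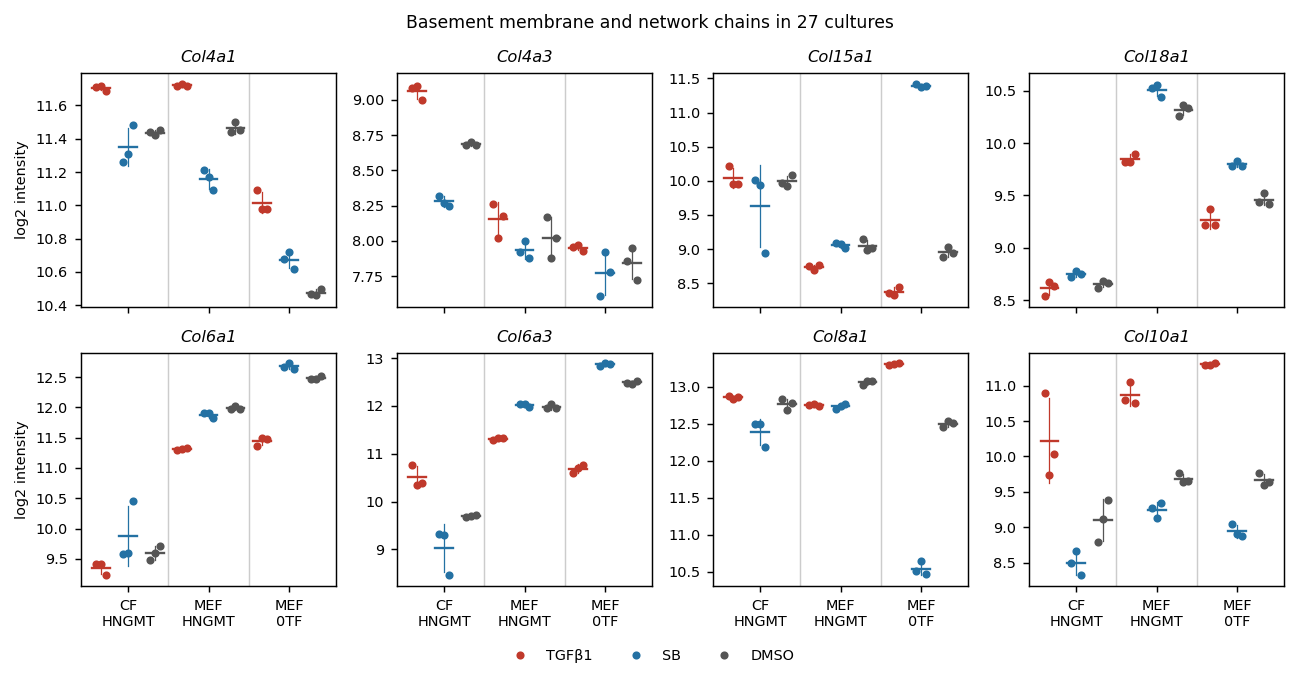
Points are the log2 intensity of single cultures (y axis, each gene on its own scale) of 4 basement membrane and 4 network or microfilament genes in 9 groups of 3 cultures, with bars for the group mean and vertical lines for the SD. Col15a1 in 0TF MEFs with SB (11.37 to 11.42) lies above all other cultures, Col8a1 in the same cultures (10.47 to 10.64) lies below all others, and CF HNGMT+SB replicate 3 stands apart in Col15a1, Col6a1 and Col6a3.

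HNGMT was compared with 0TF in MEFs within each treatment. With DMSO, 3 collagen genes rose and 3 fell (4.56% and 4.51% over all genes), with TGFβ1 5 rose and 3 fell (6.37% and 3.88%), and with SB 3 rose and 11 fell (5.04% and 4.81%). The fibrillar class had a median log2 difference of -0.30 with DMSO, -0.26 with TGFβ1 and -0.44 with SB, and the basement membrane class one of 0.26, 0.28 and 0.32. The medians over all genes were -0.0061 with DMSO, -0.0415 with TGFβ1 and 0.0107 with SB. In the same cultures the mean of the 7 cardiomyocyte markers was 10.22 to 10.34 with HNGMT+DMSO, against 8.22 to 8.33 with 0TF+DMSO. That of the 10 fibroblast markers was 12.52 to 12.53, against 12.98 to 13.04. With SB all 7 cardiomyocyte markers were called up and all 7 adipocyte markers down. All 5 smooth muscle and myofibroblast markers were called up with DMSO and with SB, while with TGFβ1 1 was called up and 3 down. Of 6 epithelial markers 4 were called up with TGFβ1 and 2 each with DMSO and SB. Their part in the collagen values was not tested.

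The chains Col4a1, Col4a2 and Col18a1 of the basement membrane class rose with HNGMT in DMSO. Col4a1, the main type IV chain of nearly all basement membranes, had 11.44, 11.50 and 11.45 with HNGMT+DMSO, against 10.47, 10.46 and 10.50 with 0TF+DMSO (0.99 ± 0.04, adjusted p = 1.28e-12). Col4a2, its partner in the trimer and its neighbor on chromosome 8, had 11.58, 11.65 and 11.54, against 10.58, 10.72 and 10.66 (0.94 ± 0.05). Both rose with TGFβ1 as well, by 0.71 and 0.72, and with SB had 0.48 and 0.52, under the fold threshold. The groups of both genes did not overlap in any of the 3 treatments.

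Col18a1, the multiplexin that releases endostatin, had 10.26, 10.36 and 10.33 with HNGMT+DMSO, against 9.44, 9.52 and 9.42 with 0TF+DMSO (0.86 ± 0.05, adjusted p = 7.17e-11), and it also rose with SB, by 0.72. With TGFβ1 its difference of 0.5798 was just under the threshold of a 1.5-fold change, and it was called without 0TF+TGFβ1 replicate 2 (0.63) or without HNGMT+TGFβ1 replicate 1 (0.60) or 2 (0.59). Col15a1 showed a difference of 0.09 with DMSO and fell by 2.34 with SB, where the 0TF cultures had the high values given above. Col4a3, Col4a4, Col4a5 and Col4a6 were not called for HNGMT under any treatment, with log2 differences from -0.16 (Col4a5 with TGFβ1) to 0.47 (Col4a5 with SB).

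Among fibrillar chains, Col3a1 fell with HNGMT under all 3 treatments, by 1.15 with TGFβ1, 1.02 with SB and 0.76 with DMSO. The values with SB were 12.37, 12.39 and 12.26 with HNGMT, against 13.33, 13.40 and 13.35 with 0TF. Col5a2 fell by 1.09 with TGFβ1 and 0.87 with SB and had -0.53 with DMSO, and Col5a3, a minor type V chain, fell by 0.61 with TGFβ1 (8.74, 8.42 and 8.57, against 9.20, 9.17 and 9.17) and by 0.64 with SB. Without MEF HNGMT+TGFβ1 replicate 2 the difference of Col5a3 with TGFβ1 was -0.53, under the fold threshold. Col1a2 fell with SB, at 13.03, 13.01 and 12.90 with HNGMT against 13.53, 13.64 and 13.55 with 0TF (-0.59 ± 0.04, adjusted p = 8.53e-10). It was under the fold threshold without 0TF+SB replicate 2 (-0.56) and without HNGMT+SB replicate 3 (-0.55). Col1a1 had -0.01, -0.26 and -0.11 with TGFβ1, SB and DMSO and was not called.

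Col11a1 and Col2a1 were the fibrillar chains that rose with HNGMT. Col11a1 rose with HNGMT by 0.98 with TGFβ1 and 0.63 with SB and had 0.34 with DMSO. Col2a1, the type II chain of cartilage, rose by 0.71 with TGFβ1 (10.11, 10.13 and 10.08 with HNGMT, against 9.45, 9.35 and 9.39 with 0TF) and had 0.46 and 0.52 with SB and DMSO.

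Col14a1 was lower with HNGMT in the absence of TGFβ1. It had 9.92, 10.05 and 9.93 with HNGMT+DMSO, against 11.02, 11.22 and 11.14 with 0TF+DMSO (-1.16 ± 0.06, adjusted p = 1.32e-11), and 9.63, 9.71 and 9.65 with HNGMT+SB, against 11.20, 11.27 and 11.14 with 0TF+SB (-1.54 ± 0.06). With TGFβ1 the difference was -0.13. Its response to TGFβ1 differed between HNGMT and 0TF by 1.03 ± 0.08, that of Col6a3 by 1.13 ± 0.06, that of Col11a1 by 0.64 ± 0.07 and that of Col8a1 by -1.12 ± 0.06 (4 of 44 called, with 7.45% over all genes, 4.68% higher and 2.77% lower). For Col14a1, Col6a3 and Col11a1 the fall with TGFβ1 in 0TF cultures was larger than the difference in HNGMT cultures.

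The type VI chains were lower with HNGMT in SB. Col6a1 had 11.90, 11.90 and 11.82 with HNGMT+SB, against 12.66, 12.73 and 12.64 with 0TF+SB (-0.80), Col6a2 differed by -0.83 and Col6a3 by -0.85. With DMSO the 3 genes had -0.49, -0.44 and -0.51, under the fold threshold. With TGFβ1, Col6a3 rose by 0.62 (0.57 and under the fold threshold without 0TF+TGFβ1 replicate 1) and the other 2 had -0.14 and 0.08. Col8a1 rose with HNGMT in SB by 2.20 ± 0.04 (12.70, 12.74 and 12.77, against 10.51, 10.64 and 10.47, adjusted p = 2.86e-17). Col26a1 had 9.18, 9.08 and 9.12 with HNGMT+SB, against 10.15, 10.11 and 10.07 with 0TF+SB. It fell with SB and with DMSO, by 0.98 and 0.70, and Col28a1 fell with SB by 0.73.

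By the RefSeq annotation, 8 pairs of collagen genes, with 15 genes in all, had no other protein-coding gene between them. The pair Col6a1 and Col6a2 was called together in 3 comparisons, each time down, and the pair Col4a1 and Col4a2 in 2, each time up. Col3a1 and Col5a2 were called together in 3 comparisons, up with TGFβ1 in CFs (0.74 and 0.70) and down with HNGMT under TGFβ1 (-1.15 and -1.09) and under SB (-1.02 and -0.87), and differed in sign with TGFβ1 in 0TF MEFs (-0.59, and 0.53 with no call). Col4a3 and Col4a4 were both called only with SB in CFs.

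The 4 transmembrane collagens, Col13a1, Col17a1, Col23a1 and Col25a1, were called in none of the 9 comparisons, and their largest log2 difference was 0.27 in size. Col13a1, found at neuromuscular junctions, ran from 7.65 to 8.40 over the 27 cultures. In CFs it had 7.93, 8.05 and 8.04 with TGFβ1, inside the 7.65, 8.27 and 8.01 with DMSO. Of the 9 fibril-associated genes only Col12a1 and Col14a1 were called, and the type IX chains of cartilage, Col16a1, Col19a1, Col20a1 and Col22a1 were not. The other genes with no call were Col1a1, Col11a2, Col24a1 and Col27a1 among the fibrillar chains, Col4a5 and Col4a6 among the basement membrane chains, and Col6a4, Col6a5, Col6a6 and Col7a1. The largest difference over these 21 genes was 0.56, of Col6a6 with SB in 0TF MEFs. Col6a6 has 2 probe sets, of which the brighter was used. With the mean of both it was called by limma with SB in 0TF MEFs (0.80, adjusted p = 1.005e-05). With that mean it was also called for HNGMT against 0TF with SB (-0.67). In some groups these 21 genes tended to be high or low together: CF HNGMT+DMSO replicate 1 had the lowest of the 3 values in 19 of them, and MEF HNGMT+TGFβ1 replicate 2 in 20. In 0TF MEFs with TGFβ1 the 3 replicates had the lowest value in 2, 6 and 11. The 2 arrays named first also had the lowest median of all probe sets in their groups (7.4087 and 7.8344). The same count was not made over all genes, and the part of the array level was not tested.

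The enzymes that modify, fold and cross-link collagen were read as a list of 30 genes, of which 27 were measured. With TGFβ1 in CFs 11 rose and 0 fell (3.11% and 2.20% over all genes): Loxl4, Lox and Loxl3, which cross-link fibrils, by 1.32, 1.08 and 0.61, P4ha2, a prolyl hydroxylase, by 0.79, P3h1 by 0.66, Adamts14, a procollagen peptidase, by 0.71, and Colgalt1, Plod1, Bmp1, Plod3 and Plod2 by 0.37 to 0.54. A call needed a log2 difference of 0.58 in MEFs, against 0.32 in CFs, so counts are not alike between the cell types. With the factors in MEFs, TGFβ1 raised Loxl4 and Plod2 (2.23% over all genes) and lowered P4ha3 and Adamts3 (3.54%). In 0TF MEFs it raised Loxl3 and P4ha1 (4.21%) and lowered P4ha3, P3h2 and Adamts3 (6.19%), the last by 2.86. SB lowered Lox by 0.77 and P4ha3 by 0.98 in MEFs with HNGMT and raised 0 (0.431% and 0.391% over all genes). In 0TF MEFs it raised Pcolce2 and P3h2 (0.80 and 0.76) and lowered Adamts3, P4ha3 and Tll1 (-1.99, -0.89 and -0.61). In CFs it lowered Plod2 (-0.47) and raised 0. Over all genes, 1.26% rose and 1.13% fell with SB in 0TF MEFs, and 0.0451% rose and 0.196% fell in CFs. With HNGMT against 0TF, 3 rose and 6 fell with DMSO (4.56% and 4.51% over all genes), 5 rose and 5 fell with TGFβ1 (6.37% and 3.88%), and 1 rose and 7 fell with SB (5.04% and 4.81%). The median of the list with TGFβ1 was 0.37 in CFs, 0.12 in MEFs with HNGMT and 0.04 in 0TF MEFs.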

How the data were processed

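Total RNA of 27 cultures (9 groups of 3) was measured on the Mouse Gene 1.0 ST platform of Affymetrix. The deposited values are log2 intensities that the authors made with Affymetrix Microarray Suite 5.0 and PartekGS. Background correction and normalization settings are not given in the sources used here. Array medians differed between CFs and MEFs, so cell types were tested against each other only by their responses. Levels of markers and of a few collagen genes were described across both without a test. Read depth does not apply to arrays, and 3 arrays per group limit the precision.

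Of 35556 probe sets, 21789 had a single gene symbol, 1621 several and 12146 none in the platform annotation. Each of 19938 genes was read from its brightest probe set on average (999 had several). Fits used limma 3.58.1 in R 4.3.3: 1 for 18 MEF arrays, 1 for 9 CF arrays, and all 27 for differences between CFs and MEFs. P-values were adjusted by Benjamini-Hochberg across the 19938 genes, and a call needed 0.05 with a log2 difference of 0.58 or more (MEFs, and differences of responses) or 0.32 or more (CFs). SE is the standard error of limma's moderated fit. The code was tested on simulated data. Values by culture were given for 18 listed chains (types I, III, V, VI, XII, XIII, XIV and XV, Col4a1, Col4a2, Col8a1, Col11a1 and Col18a1) and for called genes among the 3 highest or 3 lowest folds, in the comparisons described, and other genes by range and count. The collagen genes, classes and other lists were chosen with earlier results of these data known, so list counts and medians are descriptions. Alternatives were quantile normalization, mean of probe sets, omission of dim genes, no fold threshold, another variance model, 1 fit for all arrays, a replicate block and leaving out each culture. Promoter windows came from RefSeq (GRCm38.p6), and figures were drawn with matplotlib 3.10.9.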

Additional observations from a re-analysis of the deposited data

Results flagged for a closer look

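A total of 13 responses of collagen genes differed between backgrounds by limma's test of the difference itself. No explanation was tested. Over all genes, 7.45% were called for the TGFβ1 response and 1.96% for the SB response between HNGMT and 0TF, against 4 and 2 of the 44 collagen genes, and 4.38% for the TGFβ1 response between CFs and MEFs, against 7 of 44. The first share of the collagen genes (9.09%) is near that of all genes. Between HNGMT and 0TF MEFs, the log2 response to TGFβ1 differed by 1.13 for Col6a3 (adjusted p = 2.45e-10), 1.03 for Col14a1 (adjusted p = 2.2e-08), 0.64 for Col11a1 (adjusted p = 1.68e-06) and -1.12 for Col8a1 (adjusted p = 1.34e-10). The log2 response to SB differed by -2.43 for Col15a1 (adjusted p = 1.22e-13) and by 1.64 for Col8a1 (adjusted p = 4.15e-12). Col8a1 was the collagen gene with a difference in both responses.

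Between CFs and MEFs with HNGMT, the log2 response to TGFβ1 was higher in CFs by 1.72 for Col3a1 (adjusted p = 7.94e-12), 1.49 for Col6a3 (adjusted p = 1.3e-05), 1.34 for Col11a1 (adjusted p = 1.76e-11), 1.03 for Col8a2 (adjusted p = 0.000186), 0.98 for Col14a1 (adjusted p = 0.0401), 0.89 for Col12a1 (adjusted p = 7.73e-05) and 0.73 for Col5a2 (adjusted p = 0.000211). Col8a2 was near the array medians in these CFs, and the part of that level in the difference was not tested.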

How the results depend on the processing

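No called collagen gene changed direction under any alternative, and no gene was newly called in the opposite direction. Genes with no call could change sign. With SB in CFs, Col6a1 had 0.27 in the main fit and -0.01 without CF HNGMT+SB replicate 3. With all 27 arrays in one fit the count of collagen genes called was 10 in place of 6 with TGFβ1 in CFs, and 8 in place of 3 with SB in CFs. With the replicate number as a replicate block it was 1 with SB in CFs (Col4a3 and Col4a4 were lost) and 1 for the CF minus MEF difference of the SB response (Col6a3, adjusted p = 0.0479), and the block changed no other count by over 1.5 times. Whether the numbers pair the samples was left undecided: the best match had the same number for 7 of 18 MEF and 5 of 9 CF arrays. Correlations of same-number pairs had both signs, with a median of -0.02 over 45 MEF pairs and 0.09 over 9 CF pairs. The highest were 0.59 (MEFs) and 0.65 (CFs), so pairing was not excluded. The mean of probe sets added 3 calls, all of Col6a6, and lost none. Without a fold threshold the counts with TGFβ1 were 18 in MEFs with HNGMT and 23 in 0TF MEFs, and with SB 14 and 17. For HNGMT against 0TF they were 24, 28 and 23 with TGFβ1, SB and DMSO. The HNGMT minus 0TF difference of the TGFβ1 and SB responses gave 19 and 16. The CF minus MEF difference of the same responses gave 13 and 3. Shares over all genes are not set beside the counts of this section, so they show only how calls depend on the settings.

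With 1 culture left out at a time, counts ran from 3 to 10 with TGFβ1 in CFs and from 0 to 7 with SB in CFs, with the upper end without CF HNGMT+SB replicate 3. For TGFβ1 leaving out that culture, which enters only the spread, was chosen after seeing the data. The count with SB in CFs was 0 without DMSO replicate 3 and 1 without DMSO replicate 2. The count with TGFβ1 was 7 in MEFs with HNGMT each time and 9 to 11 in 0TF MEFs, that with SB 2 and 6 each time, and that of HNGMT against 0TF 7 to 9, 13 to 14 and 6 to 7 with TGFβ1, SB and DMSO. For the differences of responses it was 4 to 6 (TGFβ1) and 2 to 3 (SB) for HNGMT minus 0TF, and 6 to 7 and 0 to 1 for CFs minus MEFs, with 1 without CF HNGMT+SB replicate 1 or 2.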
